A study of Homo sapiens with 16 samples.

Results

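The 10 genes described here are textbook targets of the transcription factor p53: CDKN1A, GADD45A, ZMAT3, BBC3, BAX, TP53I3, TP53INP1, SESN1, GDF15 and MDM2. They were chosen by gene symbol from the 61806 genes of the count table, and all 10 were among the 16029 genes with enough counts to be tested. Poly(A) RNA was sequenced from LX-2, an established line of human hepatic stellate cells, the collagen-producing cells of liver fibrosis. The 4 groups of 4 libraries each were wild-type LX-2 given 100 ng/mL TWEAK for 2 h (TWEAK), a knockout of the Fn14α isoform (Fn14α KO), a knockout of Fn14 (Fn14 KO), and wild-type LX-2 given the vehicle PBS (WT). TWEAK is a cytokine of the tumour necrosis factor family, Fn14 is its receptor, encoded by TNFRSF12A, and the study asked about an isoform of Fn14 that signals without TWEAK. All cells were cultured for 24 h before treatment in the same reduced-serum medium, and the knockouts were not given TWEAK. The treatment step is recorded as 2 h for all 4 groups, the knockouts included. Each knockout was 1 line, and no source used here says if it came from 1 cell or from a mixed population, so what the lost gene does and what sets that line apart cannot be told apart. The study's design text calls the 4 libraries of a group biological replicates and names no batch. The labels do not say that they came from separate cultures, so the spread behind each p-value may be partly technical.

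p53 is held low in resting cells by MDM2, a ubiquitin ligase that marks it for destruction and is itself made from a p53 target gene, which closes a negative feedback loop. When DNA damage or other stress frees p53, it binds paired half-sites near its targets and switches on genes for cell cycle arrest, cell death, redox control and secreted signals. LX-2 is an immortalised line, so the level of these genes in it need not match that in primary stellate cells. Whether the line carries the large T antigen of simian virus, a protein known to bind p53, was not checked here.

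Promoter windows from 250 bases before to 50 bases after a transcript start were read from RefSeq (GRCh38.p14) for 8 of the 10 genes, 14 windows in all. Both strands were searched for the p53 binding motif, as single exact half-sites of 10 bases and as 2 adjoining half-sites with at most 3 mismatches over 20 bases. Such a pair was found in windows of 3 of the 8 genes, against 6.39% of 27305 genes with a window. The limit of 3 mismatches was set after a stricter search had been seen. MDM2 had 4 windows and SESN1 had 3, where 27305 genes had 35097 windows, so these shares do not compare like with like. For each of the 3 genes 1 window is shown with every matching pair in capitals, written 5′ to 3′ on the strand of the gene. The MDM2 window belongs to a start inside the gene, at chr12:68808767-68809066 on the plus strand, and holds 2 pairs, the first 94 bases before that start with 2 mismatches. The SESN1 window belongs to an internal start at chr6:109008939-109009238 on the minus strand, with its pair 49 bases before that start. This pair has 3 mismatches and contains the only exact half-site found in the windows of these genes. The GDF15 window lies at chr19:18385908-18386207 on the plus strand, with its pair 28 bases after the start and 3 mismatches. The CDKN1A window lies at chr6:36678464-36678763 on the plus strand. It is shown because CDKN1A is the most abundant of the genes that fell in both knockouts. Neither a pair nor an exact half-site was found in it. Sequence outside the windows was not searched, so this does not show that CDKN1A lacks a p53 site. A match is a description of sequence and not a shown binding site.
MDM2: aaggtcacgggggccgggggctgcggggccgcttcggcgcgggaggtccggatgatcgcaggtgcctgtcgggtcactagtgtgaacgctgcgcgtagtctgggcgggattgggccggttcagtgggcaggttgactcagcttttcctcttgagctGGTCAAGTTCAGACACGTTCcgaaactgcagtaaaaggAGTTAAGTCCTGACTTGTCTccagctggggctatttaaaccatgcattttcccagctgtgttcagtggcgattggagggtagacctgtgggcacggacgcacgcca
SESN1: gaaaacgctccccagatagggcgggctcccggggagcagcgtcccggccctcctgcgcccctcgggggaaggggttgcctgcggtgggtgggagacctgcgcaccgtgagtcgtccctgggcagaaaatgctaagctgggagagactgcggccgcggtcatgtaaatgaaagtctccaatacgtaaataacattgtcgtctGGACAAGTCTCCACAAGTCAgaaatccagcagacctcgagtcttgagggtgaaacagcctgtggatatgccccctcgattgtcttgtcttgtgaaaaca
GDF15: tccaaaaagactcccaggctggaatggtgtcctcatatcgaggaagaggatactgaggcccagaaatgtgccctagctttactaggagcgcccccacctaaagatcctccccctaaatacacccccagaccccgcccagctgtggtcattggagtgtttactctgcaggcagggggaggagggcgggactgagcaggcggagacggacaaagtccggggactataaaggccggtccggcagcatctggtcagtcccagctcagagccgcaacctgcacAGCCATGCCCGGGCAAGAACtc
CDKN1A: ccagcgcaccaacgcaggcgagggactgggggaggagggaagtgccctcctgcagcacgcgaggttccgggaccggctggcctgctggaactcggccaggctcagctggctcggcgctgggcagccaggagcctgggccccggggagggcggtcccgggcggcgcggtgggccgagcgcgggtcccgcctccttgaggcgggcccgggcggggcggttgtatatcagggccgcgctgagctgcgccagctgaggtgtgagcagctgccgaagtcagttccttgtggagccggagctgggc

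The libraries held 13335919 to 16888606 counts on genes. TNFRSF12A itself averaged 59.3 ± 6.43 FPKM in Fn14α KO cells, 33.6 ± 2.77 FPKM in Fn14 KO cells, 130 ± 7.07 FPKM with TWEAK and 128 ± 6.29 FPKM in WT cells (SD, n = 4 each). Its RNA was thus lower but present in both knockouts. Fn14 KO replicate 1 and WT replicate 4 stood apart from the other libraries on the third principal component, with scores of 24.5 and 37.0 against -19.9 to 10.4, and had a lower mitochondrial share of counts, 2.96% and 3.44% against 3.77% to 5.27%. The stellate list of 11 markers summed to 574 to 584 FPKM in Fn14α KO cells, 1052 to 1121 FPKM in Fn14 KO cells, 926 to 995 FPKM with TWEAK and 738 to 780 FPKM in WT cells. Of these sums, VIM averaged 259 FPKM in Fn14α KO cells and 447 FPKM in Fn14 KO cells. It averaged 612 FPKM with TWEAK and 378 FPKM in WT cells. Other listed markers did not all follow VIM. With TWEAK, COL1A1 and SPARC averaged 120 and 95.8 FPKM, against 133 and 105 FPKM in WT cells. The listed markers did not move together in Fn14 KO cells either. COL1A1 and SPARC averaged 196 and 218 FPKM there, against 133 and 105 FPKM in WT cells. COL1A2, COL3A1 and DCN averaged 0.16, 8.33 and 0.995 FPKM in Fn14 KO cells, against 1.48, 23.7 and 3.785 FPKM in WT cells. LRAT, which marks quiescent stellate cells, was at or near 0 throughout. Of 8 hepatocyte, 7 endothelial and 8 leukocyte markers, 7, 6 and 7 stayed below 1 FPKM in all 16 libraries. The 5 cholangiocyte markers summed to 5.57 to 7.20 FPKM in Fn14α KO cells, 11.3 to 12.8 FPKM in Fn14 KO cells, 5.38 to 6.06 FPKM with TWEAK and 5.19 to 6.29 FPKM in WT cells. SOX9 made up 11.0 FPKM of these in Fn14 KO cells and 4.20 FPKM in WT cells on average. Their part in the results was not tested. In bulk RNA, fewer cells expressing a gene and less RNA per cell cannot be told apart.

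Levels are given in FPKM, the authors' values scaled to gene length and library size, which allow genes to be compared with each other. Changes are log2 fold changes with standard errors from edgeR's quasi-likelihood test on the counts of all 16 libraries, with Benjamini-Hochberg adjustment over all 16029 genes, and a gene is said to have risen or fallen where the adjusted p was below 0.05. The scaling of edgeR, TMM, sets the middle of all genes to about 0 and FPKM does not: with total counts in place of TMM, the median of all genes was -0.12 in Fn14 KO against WT and -0.15 in Fn14 KO against Fn14α KO, so FPKM ratios of the Fn14 KO lie lower than the tested changes.

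The 10 genes differed widely in level. In WT cells BAX, GADD45A and CDKN1A lay highest, at 51.7 ± 3.90, 50.8 ± 6.16 and 47.4 ± 2.48 FPKM (SD, n = 4), and their ranges overlapped from one to the next. TP53I3 and MDM2 followed at 12.2 ± 1.32 and 11.5 ± 0.37 FPKM, also overlapping. The remaining 5 genes lay between 2.36 FPKM for BBC3 and 4.20 FPKM for GDF15, and only some neighbours in this order overlapped: GDF15 with ZMAT3, and TP53INP1 with BBC3, while ZMAT3 was separated from SESN1 and SESN1 from TP53INP1. In the knockouts CDKN1A dropped below BAX and GADD45A with no overlap, and in the Fn14 KO GDF15 was the lowest of the 10 genes at 0.40 ± 0.07 FPKM (SD, n = 4), below every library of BBC3. With TWEAK, GADD45A stood alone at the top at 85.1 ± 6.78 FPKM (SD, n = 4).

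**Figure D1:**
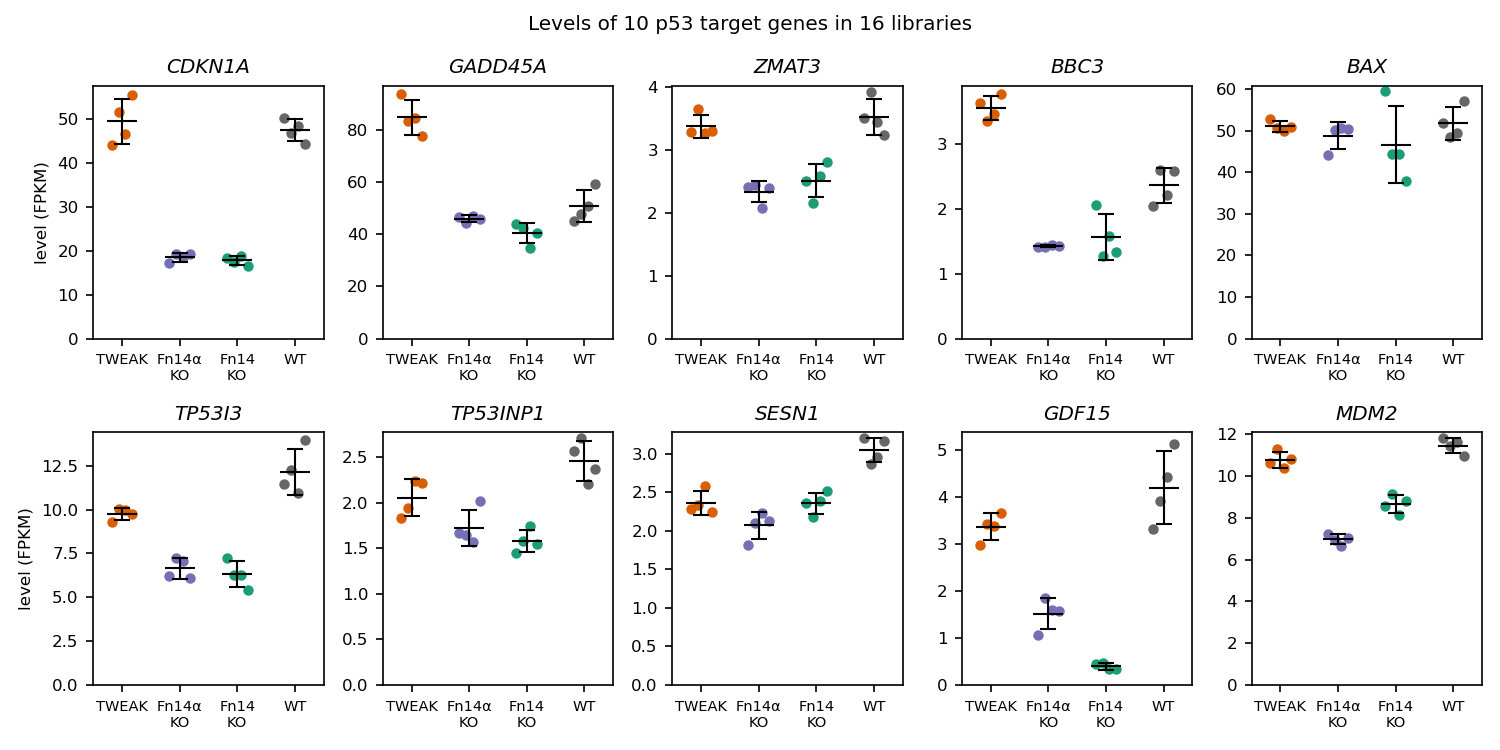
Levels of the 10 p53 target genes in FPKM (vertical axes, from 0, a scale of its own for each gene) in 4 libraries of each group; each dot is 1 library, the horizontal bar is the mean and the error bar is 1 SD. For CDKN1A, ZMAT3, TP53I3, TP53INP1, SESN1, GDF15 and MDM2 every knockout library lies below every WT library, for BAX the groups overlap, and GADD45A and BBC3 lie higher with TWEAK.

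Both knockouts had lower RNA of nearly the whole set, and TWEAK for 2 h moved only a few of its genes. In Fn14α KO cells 8 of the 10 genes fell and none rose relative to WT, where 42.2% of all tested genes were called in either direction, 22.2% lower and 20.0% higher. In Fn14 KO cells 9 of the 10 fell and none rose, against 52.9% called in either direction, 26.3% lower and 26.6% higher. The estimate was below 0 for all 10 genes in both comparisons, with a median of -0.69 in Fn14α KO and -0.43 in Fn14 KO, where the median of all tested genes was 0.005 and -0.007. With TWEAK, 2 genes rose and 1 fell, against 6.87% of all tested genes called, 4.82% higher and 2.05% lower, and the median over the 10 was -0.02. By the FPKM of single libraries, 8 of the 10 genes lay below WT without overlap in Fn14α KO, against 18.7% of all tested genes, and 8 in Fn14 KO, against 28.1%. With TWEAK 2 genes lay above WT without overlap, against 5.74% of all tested genes, and 2 lay below it, against 11.6%. Both knockout comparisons use the same 4 WT libraries, so they do not give independent counts. Leaving MDM2 out, for its place on chromosome 12, 7 of 9 fell in Fn14α KO and 8 of 9 in Fn14 KO. In Fn14 KO other chromosomes that hold members were shifted too. Chromosome 2, with TP53I3, had a median change of -0.22, and chromosome 19, with BBC3, BAX and GDF15, of -0.13. Chromosomes 3 and 6, with ZMAT3, CDKN1A and SESN1, had medians of 0.38 and 0.20. Leaving out MDM2 thus does not remove shifts of whole chromosomes there. Without the 2 libraries that stood apart the counts were the same, 8 and 9 lower in the knockouts and 2 higher and 1 lower with TWEAK. With the neighbours' medians removed, 8 were lower in Fn14α KO and 7 in Fn14 KO, where GADD45A and ZMAT3 did not pass.

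**Figure D2:**
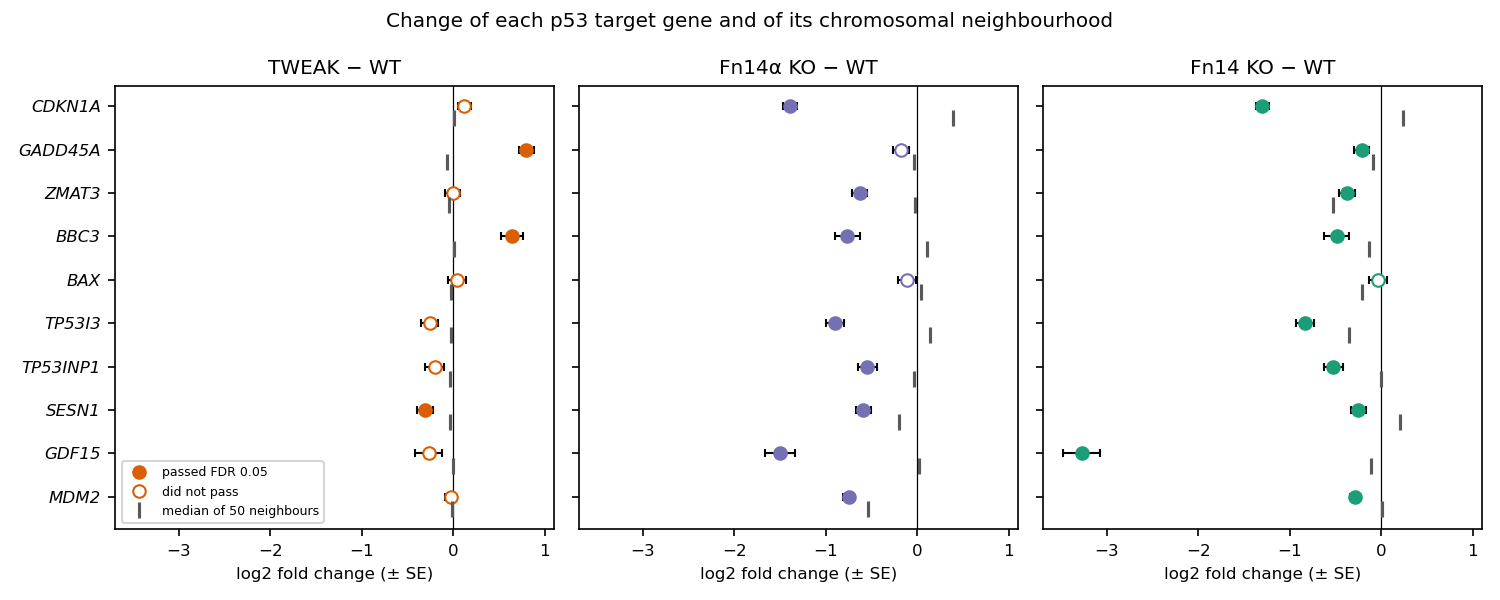
Log2 fold change of each gene (horizontal axes) in TWEAK, Fn14α KO and Fn14 KO cells, each relative to WT, with bars of 1 SE; filled dots passed an adjusted p of 0.05 and open dots did not, and the grey tick is the median change of the 50 nearest tested genes. All dots lie left of 0 in both knockouts, and the tick lies at -0.54 for MDM2 in Fn14α KO and at -0.53 for ZMAT3 in Fn14 KO.

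CDKN1A encodes p21, the inhibitor of cyclin-dependent kinases that carries much of the p53 arrest response. Its level was 17.1, 19.3, 18.4 and 19.2 FPKM in Fn14α KO cells, 18.4, 17.4, 18.8 and 16.4 FPKM in Fn14 KO cells, 44.1, 51.6, 46.5 and 55.5 FPKM with TWEAK, and 50.1, 46.8, 48.3 and 44.3 FPKM in WT cells. All 8 knockout libraries lay far below all 8 libraries without a knockout, and the TWEAK and WT ranges overlapped. The log2 fold change was -1.39 ± 0.07 in Fn14α KO (edgeR adjusted p = 4.47e-13) and -1.30 ± 0.07 in Fn14 KO (adjusted p = 4.23e-13), which leaves 38.2% and 40.6% of the WT level. With TWEAK it was 0.12 ± 0.07 (edgeR adjusted p = 0.364). The genes around CDKN1A on chromosome 6 did not share the drop: the median of its 50 nearest tested genes was 0.39 in Fn14α KO and 0.24 in Fn14 KO, and 0 and 1 of those 50 had a lower estimate than CDKN1A. The gene spans chr6:36676460-36687337 on the plus strand in the files' build, GRCh38.

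GADD45A, a stress sensor that binds PCNA and p38 kinase regulators and is induced by p53 as well as by other pathways, had the largest rise of the 10 genes with TWEAK. Its level was 94.1, 83.5, 84.8 and 77.8 FPKM with TWEAK, against 45.2, 47.8, 50.8 and 59.4 FPKM in WT cells. Every TWEAK library exceeded every WT library, with a log2 fold change of 0.80 ± 0.08 (edgeR adjusted p = 2.02e-07). In Fn14α KO cells it was 46.8, 44.2, 47.1 and 45.9 FPKM, overlapping WT, with a change of -0.18 ± 0.08 that did not pass (edgeR adjusted p = 0.0931). In Fn14 KO cells it was 43.8, 42.4, 35.0 and 40.5 FPKM, below all WT libraries, with a change of -0.21 ± 0.08 (edgeR adjusted p = 0.0353). That last call was not stable: it was lost in 8 of 19 alternatives, among them without WT replicate 4 (-0.13, edgeR adjusted p = 0.177) and without Fn14 KO replicate 3 (-0.15, edgeR adjusted p = 0.150), over a range of adjusted p from 0.00152 to 0.274.

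ZMAT3 encodes a zinc finger protein that binds RNA and acts in splicing as a p53 effector. It had 2.41, 2.44, 2.08 and 2.39 FPKM in Fn14α KO cells, 2.50, 2.16, 2.58 and 2.80 FPKM in Fn14 KO cells, 3.28, 3.64, 3.27 and 3.29 FPKM with TWEAK, and 3.5, 3.92, 3.44 and 3.24 FPKM in WT cells. Neither knockout overlapped WT, and TWEAK did. The change was -0.63 ± 0.08 in Fn14α KO (edgeR adjusted p = 1.67e-06) and -0.37 ± 0.08 in Fn14 KO (edgeR adjusted p = 5.45e-04). In the Fn14 KO the 50 nearest genes on chromosome 3 had a median of -0.53, and with that median removed the ZMAT3 estimate was 0.15 (edgeR adjusted p = 0.147, in a range from 3.00e-05 to 0.147 over the alternatives). In Fn14α KO the same neighbours had a median of -0.02.

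BBC3 encodes PUMA, a BH3-only protein that frees the mitochondrial death pathway, and it was the other gene that rose with TWEAK. It had 3.63, 3.35, 3.47 and 3.77 FPKM with TWEAK, against 2.05, 2.60, 2.22 and 2.58 FPKM in WT cells, with no overlap and a log2 fold change of 0.64 ± 0.12 (edgeR adjusted p = 0.00124). In Fn14α KO cells its 4 libraries were nearly alike, at 1.42, 1.42, 1.44 and 1.43 FPKM, all below WT, and the change was -0.76 ± 0.14 (edgeR adjusted p = 9.23e-05). In Fn14 KO cells it had 2.06, 1.28, 1.58 and 1.34 FPKM and a change of -0.49 ± 0.14 (edgeR adjusted p = 0.00428). The 2.06 FPKM of Fn14 KO replicate 1, a library that stood apart, just overlapped the 2.05 FPKM of WT replicate 1, while the other 3 Fn14 KO libraries lay below all WT libraries. Without that Fn14 KO library and WT replicate 4, the Fn14 KO change was -0.60 (edgeR adjusted p = 5.48e-04). With the neighbours' median removed and all libraries kept, the change was -0.87 in Fn14α KO and -0.35 in Fn14 KO (edgeR adjusted p = 3.07e-05 and 0.0398).

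BAX, the pore-forming protein on which PUMA acts, passed in no comparison. It had 44.0, 50.3, 50.7 and 50.4 FPKM in Fn14α KO cells, 59.6, 44.5, 44.4 and 37.9 FPKM in Fn14 KO cells, 52.9, 50.5, 49.9 and 51.0 FPKM with TWEAK, and 51.8, 48.5, 49.5 and 57.2 FPKM in WT cells. The groups overlapped throughout, and the highest library of all was Fn14 KO replicate 1. The changes relative to WT were -0.12 ± 0.10 in Fn14α KO (edgeR adjusted p = 0.358), -0.03 ± 0.10 in Fn14 KO (edgeR adjusted p = 0.795) and 0.04 ± 0.10 with TWEAK (edgeR adjusted p = 0.860). Without Fn14 KO replicate 1 the Fn14 KO change was -0.18 (edgeR adjusted p = 0.0423, in a range from 0.0423 to 0.954). Without that library and WT replicate 4 together it was -0.12 (edgeR adjusted p = 0.126).

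TP53I3, also known as PIG3, is a quinone oxidoreductase that adds to reactive oxygen species. It had 6.22, 7.27, 7.05 and 6.09 FPKM in Fn14α KO cells, 7.27, 6.27, 6.29 and 5.43 FPKM in Fn14 KO cells, 9.29, 10.02, 9.96 and 9.76 FPKM with TWEAK, and 11.5, 12.2, 11.0 and 13.97 FPKM in WT cells. Both knockouts lay below TWEAK and WT without overlap. The change was -0.90 ± 0.10 in Fn14α KO (edgeR adjusted p = 7.14e-08) and -0.83 ± 0.10 in Fn14 KO (edgeR adjusted p = 1.38e-07). It held with the neighbours' median removed, at -1.05 and -0.48. With TWEAK all 4 libraries lay below all 4 WT libraries in FPKM, but the change of -0.26 ± 0.09 did not pass (edgeR adjusted p = 0.104). With total counts in place of TMM it did pass, at -0.32 (edgeR adjusted p = 0.0349, in a range from 0.0349 to 0.353).

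TP53INP1, a stress protein that takes part in autophagy and stimulates p53, ranged from 1.57 to 2.02 FPKM in Fn14α KO cells, from 1.45 to 1.75 FPKM in Fn14 KO cells, from 1.83 to 2.24 FPKM with TWEAK and from 2.21 to 2.71 FPKM in WT cells. Neither knockout overlapped WT. The change was -0.54 ± 0.11 in Fn14α KO (edgeR adjusted p = 1.90e-04) and -0.53 ± 0.11 in Fn14 KO (edgeR adjusted p = 1.85e-04), and -0.20 ± 0.10 with TWEAK (edgeR adjusted p = 0.269).

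SESN1, a sestrin that holds back growth signalling through mTORC1 under stress, was the member that fell with TWEAK. It had 2.28, 2.33, 2.58 and 2.24 FPKM with TWEAK, 1.82, 2.10, 2.23 and 2.13 FPKM in Fn14α KO cells, 2.36, 2.18, 2.39 and 2.51 FPKM in Fn14 KO cells, and 3.2, 2.87, 2.96 and 3.16 FPKM in WT cells. All 12 libraries of the other groups lay below all WT libraries. The change was -0.59 ± 0.09 in Fn14α KO (edgeR adjusted p = 5.12e-06), -0.25 ± 0.08 in Fn14 KO (edgeR adjusted p = 0.0149) and -0.31 ± 0.08 with TWEAK (edgeR adjusted p = 0.0237). With the neighbours' median removed it was -0.38 in Fn14α KO, -0.45 in Fn14 KO and -0.27 with TWEAK. The TWEAK call was lost in 7 of 19 alternatives, among them without WT replicate 1 (adjusted p = 0.0691), without WT replicate 4 (adjusted p = 0.0651) and without TWEAK replicates 1, 2 or 4 in turn, over a range of edgeR, DESeq2 and limma adjusted p from 0.00639 to 0.0748. The Fn14 KO call was lost without Fn14 KO replicate 2 (edgeR adjusted p = 0.0590, in a range from 1.15e-04 to 0.0656). It was also lost with no filter on low counts (edgeR adjusted p = 0.0656) and at an adjusted p of 0.01.

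GDF15, a secreted cytokine of the TGF-beta superfamily that rises in stress and liver disease, showed the largest fold differences of the set. It had 1.06, 1.85, 1.60 and 1.57 FPKM in Fn14α KO cells, 0.45, 0.47, 0.34 and 0.33 FPKM in Fn14 KO cells, 2.98, 3.43, 3.39 and 3.66 FPKM with TWEAK, and 3.32, 3.92, 4.43 and 5.13 FPKM in WT cells. The knockouts overlapped neither each other nor WT, with the Fn14 KO lowest, and TWEAK and WT overlapped. The change was -1.50 ± 0.16 in Fn14α KO (edgeR adjusted p = 7.41e-08) and -3.27 ± 0.20 in Fn14 KO (edgeR adjusted p = 2.09e-12), which leaves 35.3% and 10.3% of the WT level. With TWEAK it was -0.27 ± 0.15 (edgeR adjusted p = 0.316). GDF15 is also a target of the stress factor ATF4, and the ATF4 genes are given further down.

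MDM2, the ubiquitin ligase that holds p53 down, lies on chromosome 12 at chr12:68808177-68845544 on the plus strand, and chromosome 12 as a whole was lower in Fn14α KO cells. It had 7.24, 6.95, 6.67 and 7.02 FPKM in Fn14α KO cells, 8.58, 9.12, 8.12 and 8.82 FPKM in Fn14 KO cells, 10.6, 11.3, 10.4 and 10.8 FPKM with TWEAK, and 11.8, 11.4, 11.6 and 11.0 FPKM in WT cells. The Fn14α KO libraries were lowest, the Fn14 KO libraries lay between, and neither overlapped WT. The change was -0.75 ± 0.06 in Fn14α KO (edgeR adjusted p = 3.32e-10), -0.29 ± 0.06 in Fn14 KO (edgeR adjusted p = 1.95e-04) and -0.03 ± 0.06 with TWEAK (edgeR adjusted p = 0.813).

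In Fn14α KO cells the 628 tested genes of chromosome 12 with at least 2 log2 CPM, MDM2 left out, had a median change of -0.48 relative to WT, and 80.1% of them were called lower. Around MDM2, from 6.55 Mb before to 8.52 Mb after its start, 44 of the 50 nearest such genes were called lower and none higher, with a median of -0.54. MDM2 lay below that median, but 13 of the 50 neighbours and 112 of the 628 genes had a lower estimate still. With the neighbours' median removed, the MDM2 change in Fn14α KO was -0.21 (edgeR adjusted p = 0.00885) and so remained below 0. That p-value takes the median as known and leaves out the spread of the neighbours. Their quartiles were -0.78 and -0.36, and MDM2 at -0.75 lay between them. In Fn14 KO cells the neighbours' median was 0.01, and the change of MDM2 with it removed was -0.30. How much of the lower MDM2 RNA in Fn14α KO belongs to the gene and how much to the chromosome cannot be told apart with RNA alone. None of the other 9 genes lies on chromosome 12, and the neighbours' medians of the 7 of them that fell in Fn14α KO were between -0.20 for SESN1 and 0.39 for CDKN1A. The carboxypeptidase gene CPM, on the other strand, shares 133 exonic bases with MDM2, 1% of the exonic length of MDM2, and changed by -0.82 in Fn14α KO. No source used here says if the counting used strand.

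**Figure D3:**
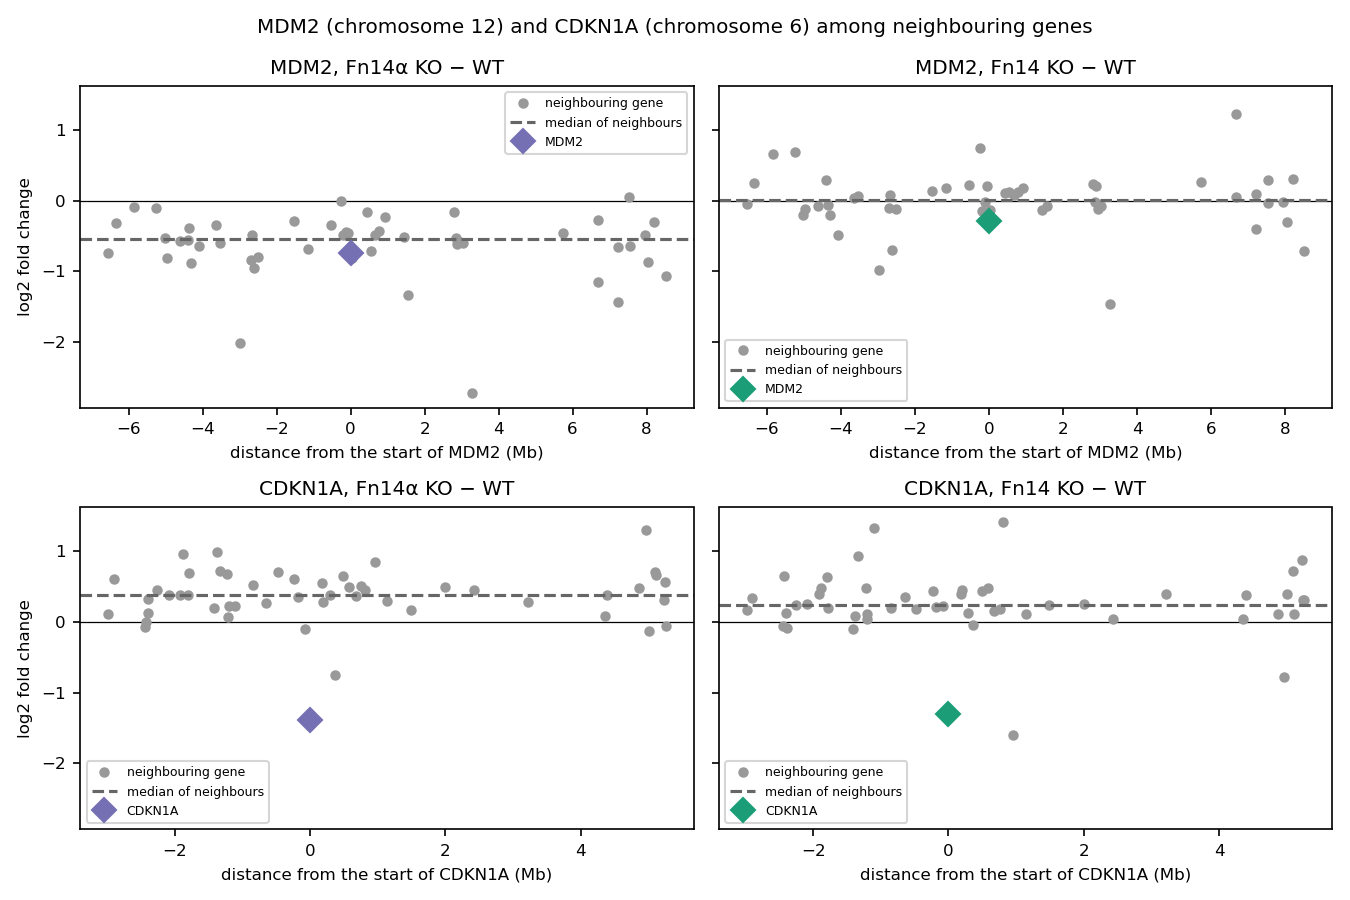
Log2 fold change (vertical axes) of MDM2 and CDKN1A (diamonds) and of the 50 nearest tested genes (grey dots) against distance from the start of each gene in Mb, for Fn14α KO and Fn14 KO, each relative to WT; the dashed line is the neighbours' median. MDM2 in Fn14α KO lies within a neighbourhood where 44 of 50 genes were called lower (median -0.54), while CDKN1A lies below a neighbourhood that is higher (medians 0.39 and 0.24).

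Set directly against each other, the knockouts differed in 4 of the 10 genes, 3 of them higher and 1 lower in Fn14 KO, where 59.2% of all tested genes were called, 30.7% higher and 28.5% lower. By single libraries, MDM2 lay higher without overlap (19.2% of all tested genes did), and GADD45A and GDF15 lay lower (32.3% did). The tested change of GADD45A was -0.04 ± 0.08 and did not pass (edgeR adjusted p = 0.732). Its highest Fn14 KO library had 43.8 FPKM and its lowest Fn14α KO library 44.2 FPKM. GDF15 was lower in Fn14 KO than in Fn14α KO, with a change of -1.77 ± 0.23 (edgeR adjusted p = 6.10e-07) and no overlap. MDM2 was higher in Fn14 KO by 0.46 ± 0.06 (edgeR adjusted p = 3.57e-07), but with the neighbours' median of 0.57 removed the estimate was -0.10 (edgeR adjusted p = 0.154). SESN1 was higher by 0.34 ± 0.09 (edgeR adjusted p = 0.00172) and ZMAT3 by 0.26 ± 0.09 (edgeR adjusted p = 0.0131), both with overlapping libraries, and neither call held with total counts in place of TMM, at 0.19 and 0.11 (edgeR adjusted p = 0.0619 and 0.305). With the neighbours' median removed, SESN1 was at 0.01 (edgeR adjusted p = 0.917) and ZMAT3 at 0.69 (edgeR adjusted p = 3.53e-07). CDKN1A differed by 0.09 ± 0.08 between the knockouts (edgeR adjusted p = 0.314). With the neighbours' medians removed, 6 of the 10 genes were called between the knockouts, 5 higher and 1 lower. Among them were CDKN1A at 0.23, BBC3 at 0.48, BAX at 0.39 and TP53I3 at 0.59 (edgeR adjusted p = 0.0139, 0.00865, 0.00216 and 4.13e-05).

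The genes whose pattern over the 16 libraries was most like that of a member are named by the smallest root mean square difference of centred log2 CPM, among 8642 or 8643 genes with a mean of at least 4 log2 CPM. For CDKN1A, whose own spread was 0.71 log2 units, these included H2AJ (on chromosome 12), CCDC69, LCP1 and ERAP2, at 0.19 to 0.22. For MDM2, with a spread of 0.30, they were MAGED1, SUDS3, SPATS2, DAP and PFKM, at 0.09, of which SUDS3, SPATS2 and PFKM also lie on chromosome 12. For GDF15, with a spread of 1.25, they were C1S (on chromosome 12), SOD2, GPRC5B, a gene on chromosome 6 without a symbol in the files, and ZC3H12A, at 0.33 to 0.46. No other member of the set was among them, but GDF15, BBC3 and TP53INP1 lay below a mean of 4 log2 CPM and could not have been.

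Of the 21 tested regulators and relatives of p53, 3 rose and 5 fell in Fn14α KO, 8 rose and 4 fell in Fn14 KO, and 1 rose with TWEAK. The 8 and 12 called in the knockouts compare with 42.2% and 52.9% of all tested genes. With the neighbours' medians removed, 5 of them were called in Fn14α KO, 3 higher and 2 lower. In Fn14 KO 4 were then called, 1 higher and 3 lower. MDM4, the partner of MDM2 that covers the activation domain of p53, rose in both knockouts, by 0.41 ± 0.09 in Fn14α KO (edgeR adjusted p = 8.08e-04) and by 0.77 ± 0.09 in Fn14 KO (edgeR adjusted p = 1.30e-07), and it was at 0.29 there with the neighbours' median removed (edgeR adjusted p = 0.0117). TP73, a p53 relative with many of the same targets, had 217 counts over the 4 Fn14α KO libraries, 8 over the Fn14 KO libraries, 41 with TWEAK and 52 in WT, and was called higher in Fn14α KO (2.14 ± 0.30, edgeR adjusted p = 2.85e-06) and lower in Fn14 KO (-2.47 ± 0.52, edgeR adjusted p = 3.05e-04). HIPK2, a kinase that phosphorylates p53, was the 1 regulator that edgeR called with TWEAK, where DESeq2 called 3 higher. It rose by 0.44 ± 0.11 (edgeR adjusted p = 0.0199). It did not pass without WT replicate 4 (0.35, edgeR adjusted p = 0.0656) or without TWEAK replicate 3 (0.41, edgeR adjusted p = 0.0643), in a range from 2.23e-06 to 0.0752.

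Other genes known as p53 targets moved in both directions in the knockouts. Of 39 tested, 23 fell and 6 rose in Fn14α KO (median -0.37), 18 fell and 8 rose in Fn14 KO (median -0.18), and 7 rose and none fell with TWEAK (median -0.01). Of all tested genes, 22.2% fell and 20.0% rose in Fn14α KO, 26.3% fell and 26.6% rose in Fn14 KO, and 4.82% rose with TWEAK. At an unadjusted edgeR p below 0.05, 5 were lower with TWEAK, DESeq2 also called 7 higher and 0 lower, and without the 2 libraries that stood apart edgeR called 9 higher and 2 lower. Leaving out chromosomes 12 and X, 18 of 34 fell in Fn14α KO and 15 of 34 in Fn14 KO. Other shifted chromosomes stayed in, such as 9 in Fn14α KO (median -0.26) and 2 in Fn14 KO (median -0.22). The 4 on chromosome 12, TRIAP1, APAF1, DRAM1 and TIGAR, all fell in Fn14α KO. TRIAP1 and APAF1 were at -0.23 and -0.22 and did not pass there with the neighbours' median removed (edgeR adjusted p = 0.130 and 0.0935). Of the metabolic and membrane genes, 9 of 12 fell in Fn14α KO and 7 of 12 in Fn14 KO, with CMBL, a hydrolase, at 55.5% and 46.6% of WT, and DRAM1, a lysosomal protein of autophagy, at 66.6% and 56.5%. DRAM1 without its neighbours' median was at -0.03 in Fn14α KO (edgeR adjusted p = 0.759) and at -0.85 in Fn14 KO (edgeR adjusted p = 2.78e-10). Of the 6 DNA repair genes, 3 were called lower and 1 higher in Fn14α KO and 2 higher in Fn14 KO. Among 9 genes for arrest and feedback, BTG2, an antiproliferative protein, fell in both knockouts (-0.59 ± 0.12 and -0.39 ± 0.12, edgeR adjusted p = 5.22e-04 and 0.00969; -0.67 and -0.88 with the neighbours' median removed), while PLK2, a stress-responsive kinase, rose in both (0.58 ± 0.06 and 0.28 ± 0.06, edgeR adjusted p = 8.45e-08 and 5.81e-04).

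**Figure D4:**
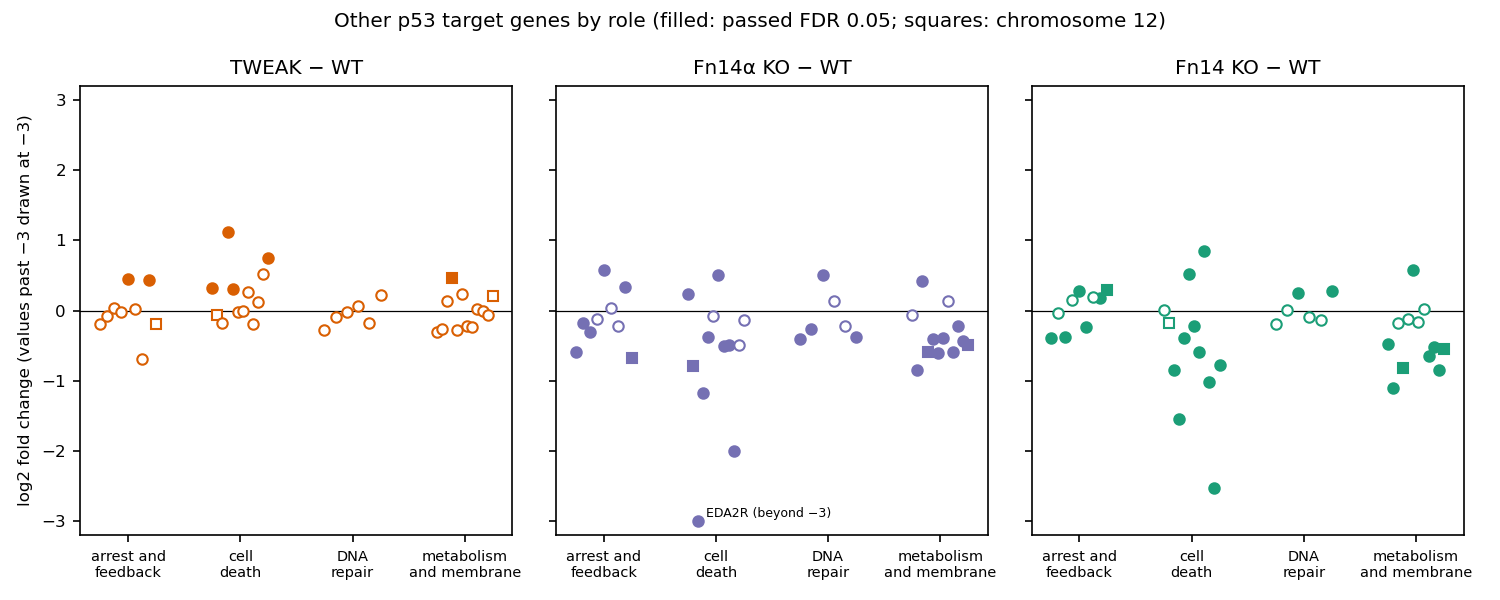
Log2 fold change (vertical axes) of 39 other p53 target genes by role, in TWEAK, Fn14α KO and Fn14 KO cells, each relative to WT; filled symbols passed an adjusted p of 0.05, squares lie on chromosome 12, and EDA2R, with 2 counts in Fn14α KO, is drawn at the edge. Most filled symbols lie below 0 in the knockouts (23 of 29 in Fn14α KO and 18 of 26 in Fn14 KO) and all 7 lie above 0 with TWEAK.

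The death receptor genes FAS and TNFRSF10B rose with TWEAK and fell in Fn14 KO. FAS, a receptor that starts apoptosis from the cell surface, had 1.11, 1.15, 0.89 and 1.11 FPKM with TWEAK, 0.27, 0.26, 0.18 and 0.21 FPKM in Fn14α KO cells, 0.17, 0.16, 0.15 and 0.17 FPKM in Fn14 KO cells, and 0.50, 0.47, 0.53 and 0.53 FPKM in WT cells. None of the 3 conditions overlapped WT. FAS rose with TWEAK by 1.12 ± 0.10 (edgeR adjusted p = 1.91e-08) and changed by -1.18 ± 0.12 in Fn14α KO (edgeR adjusted p = 1.57e-08) and by -1.55 ± 0.12 in Fn14 KO (edgeR adjusted p = 1.46e-10). TNFRSF10B, the TRAIL receptor DR5, rose with TWEAK by 0.75 ± 0.09 (edgeR adjusted p = 2.00e-06), and changed by -0.14 in Fn14α KO, which did not pass, and by -0.78 ± 0.09 in Fn14 KO (edgeR adjusted p = 1.21e-07). EDA2R, a receptor on chromosome X, had 2 counts over the 4 Fn14α KO libraries and 260 over the WT libraries, a ratio of 0.00831 per total count with a 95% interval of 0.00100 to 0.0303 for counting error only. Chromosome X as a whole was lower in Fn14α KO, with a median of -0.69 over 390 genes and 68.2% of them called lower. RPS27L, a ribosomal-like p53 target, rose in Fn14 KO by 0.85 ± 0.11 (edgeR adjusted p = 3.94e-07), and was at 0.40 with the neighbours' median removed (edgeR adjusted p = 0.00381).

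Close relatives of the members moved in both directions. Of 8 tested paralogs, 5 rose and 3 fell in Fn14α KO, 4 rose and 3 fell in Fn14 KO (42.2% and 52.9% of all tested genes were called there), and none was called with TWEAK by edgeR or DESeq2, with 1 lower at an unadjusted edgeR p below 0.05. BAK1 and BOK, relatives of BAX, rose in both knockouts. BAK1 without its neighbours' median was at 0.12 in Fn14α KO (edgeR adjusted p = 0.262). GADD45B, a relative of GADD45A, had an estimate of -0.05 with TWEAK, where GADD45A rose. The sestrins SESN2 and SESN3 fell with SESN1 in both knockouts, with SESN2 at 66.5% of WT in Fn14α KO and 63.9% in Fn14 KO. CDKN1B, the relative of CDKN1A on chromosome 12, also fell in both, at 77.4% and 73.2% of WT, but with the neighbours' median removed its estimates were 0.23 and 0.17.

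The 27 cell cycle genes that p21 is known to hold down through the DREAM complex and E2F moved in both directions: 5 rose and 2 fell in Fn14α KO, where 42.2% of all tested genes were called. In Fn14 KO, where 52.9% were called, 9 rose and 11 fell, and none was called with TWEAK by edgeR. With TWEAK, DESeq2 called 1 of them, and 3 were higher and 1 lower at an unadjusted edgeR p below 0.05. In Fn14α KO the count of 7 depended on the setting: it was 11 without the 2 libraries that stood apart, 4 without Fn14α KO replicate 2 or 3, 4 with no filter on low counts, 3 at an adjusted p of 0.01 and 2 with the neighbours' medians removed. BUB1, a spindle checkpoint kinase, had the smallest adjusted p among those that fell in Fn14 KO, at 48.4% of WT (edgeR adjusted p = 4.17e-13), and MCM5, a replication helicase subunit, among those that rose, at 147% of WT (edgeR adjusted p = 3.94e-08). With the neighbours' median removed, BUB1 was at -0.43 (edgeR adjusted p = 2.05e-06) and MCM5, on chromosome 22, at 0.09 (edgeR adjusted p = 0.242). Of 12 ATF4 targets, listed because GDF15 responds to ATF4 too, 2 rose and 4 fell in Fn14α KO, 7 rose and 3 fell in Fn14 KO, and 2 fell with TWEAK, where 42.2%, 52.9% and 6.87% of all tested genes were called. The 3 that fell in Fn14 KO were the transcription factors ATF3, DDIT3 and CEBPB, at 55.0%, 68.7% and 80.2% of WT. DDIT3 and CEBPB also fell in Fn14α KO, to 56.3% and 67.5%. DDIT3 lies on chromosome 12, where the median change in Fn14α KO was -0.48 and 80.1% of genes were called lower. PSAT1, an enzyme of serine synthesis, was at 67.2% of WT in Fn14α KO and at 183% in Fn14 KO. DDIT4, an inhibitor of mTORC1 that p53 can also induce, was at 155% and 276%. PSAT1 in Fn14α KO and CEBPB in Fn14 KO did not pass with the neighbours' median removed (-0.14 and -0.12, edgeR adjusted p = 0.0719 and 0.264).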

How the data were processed

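Poly(A) RNA of 16 LX-2 libraries was sequenced, 4 in each of 4 groups. The authors deposited raw counts of reads per gene and FPKM values for the same libraries, with gene coordinates, per the file headers. The submitters' processing notes name HTSeq 0.6.1, HISAT2 2.0.1, DESeq2, cutadapt 1.9.1, FastQC 0.10.1 and the build GRCh38.p13, with no annotation release or strand setting. Each library held 13335919 to 16888606 counts.

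Genes were filtered by filterByExpr, scaled by TMM and tested with edgeR 4.0.16 (R 4.3.3) by the quasi-likelihood test with robust dispersion, 1 mean per group over all 16 libraries, two-sided, with Benjamini-Hochberg adjustment over 16029 genes at 0.05. Alternatives were RLE factors, total counts, DESeq2 1.42.0, limma 3.58.1 on log2(FPKM + 1) and log2(FPKM + 0.1), no filter, 2 groups only, a replicate block, leaving out libraries, an adjusted p of 0.01, and an offset equal to the median change of the 25 nearest tested genes with at least 2 log2 CPM on each side. That offset was taken as known, so every p-value with the neighbours' median removed leaves out the spread among the neighbours. The scripts were tested on simulated data. Named genes were all 10 members, up to 3 called genes per direction, list and comparison with the smallest adjusted p, the 5 genes most like CDKN1A, MDM2 and GDF15; TIGAR and CPM were named after their values were seen. A few genes that this rule or the lists hold are not reported here. The members and lists were chosen with earlier results of these data known, and the limit of 3 mismatches in the motif search was set after a stricter search had been seen. Motif windows are from RefSeq and exon overlaps from GENCODE; figures were drawn with matplotlib 3.10.9.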

Additional observations from a re-analysis of the deposited data

Results flagged for a closer look

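In 40 sets of 4 libraries, 10 genes in 4 groups, 3 had a library whose gap to the nearest of the other 3 passed Dixon's critical value, where chance gives about 1 in 20. ZMAT3 was at 3.64 FPKM in TWEAK replicate 2, against 3.27 to 3.29 FPKM in the other TWEAK libraries. ZMAT3 was at 2.08 FPKM in Fn14α KO replicate 3, against 2.39 to 2.44 FPKM in the other Fn14α KO libraries. BAX was at 44.0 FPKM in Fn14α KO replicate 1, against 50.3 to 50.7 FPKM in the other Fn14α KO libraries.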

How the results depend on the processing

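Of the 24 calls over 10 genes and 4 comparisons, 17 kept their direction and their call in all 19 alternatives each, among them all 8 in Fn14α KO, 6 of 9 in Fn14 KO, GADD45A and BBC3 with TWEAK, and GDF15 between the knockouts. Leaving out 1 library at a time, the genes called numbered 2 to 3 with TWEAK, 8 to 9 in Fn14α KO, 8 to 10 in Fn14 KO and 3 to 5 between the knockouts. Between the knockouts the count was 2 with total counts and 2 with limma at either pseudocount, in place of 4, and 6 with the neighbours' medians removed, and the split of all genes there was 3666 higher and 6166 lower with total counts against 4923 and 4566 with TMM. In Fn14 KO against WT that split was 3189 and 5681 against 4256 and 4216, and with TWEAK 586 and 750 against 773 and 328. At an adjusted p of 0.01, 623 genes were called with TWEAK, in place of 1101.

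Replicate numbers did not pair the libraries: the correlations of same-numbered deviations ran from -0.23 to 0.11. With the replicate block, edgeR called 893, 6454, 8205 and 9241 genes with TWEAK, in Fn14α KO, in Fn14 KO and between the knockouts, against 1101, 6771, 8472 and 9489, and among the 10 genes GADD45A in Fn14 KO was no longer called (-0.22, adjusted p = 0.0526).

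Changes of sign were as follows, and their cause was not tested. With TWEAK, BAX was at -0.0189 with total counts, -0.0159 with limma on log2(FPKM + 1), and -0.0161 with limma on log2(FPKM + 0.1). Between the knockouts, CDKN1A, BAX, TP53I3, TP53INP1 and CCNG1 were at -0.0599, -0.0686, -0.0766, -0.13 and -0.0024 with total counts, at -0.0559, -0.0832, -0.0685, -0.0773 and -0.0027 with limma on log2(FPKM + 1), and at -0.0587, -0.0851, -0.0784, -0.12 and -0.0028 with limma on log2(FPKM + 0.1). Without the 2 libraries that stood apart, BAX and TP53I3 were at -0.0615 and -0.0025 between the knockouts. With the neighbours' median removed, ZMAT3 was at 0.042 with TWEAK. In Fn14α KO, USP7, AEN, FANCC, CDKN1B and CCNA2 were then at 0.0106, -0.0379, 0.10, 0.23 and 0.0283. In Fn14 KO, ZMAT3, BAX, FBXW7, POLH, XPC, GPX1 and CDKN1B were then at 0.15, 0.18, 0.0605, -0.12, -0.49, -0.0021 and 0.17. Between the knockouts, GADD45A, TP53INP1, MDM2, XPC, FANCC, STEAP3 and MDM4 were then at 0.0049, -0.0375, -0.10, -0.11, -0.20, 0.16 and -0.0586. Leaving out 1 library at a time, estimates ran from -0.0421 to 0.049 for ZMAT3 with TWEAK, from -0.18 to 0.0576 for BAX in Fn14 KO, and between the knockouts from -0.0354 to 0.10 for TP53INP1, from -0.0619 to 0.17 for BAX, from -0.0031 to 0.14 for TP53I3 and from -0.0803 to 0.024 for GADD45A.

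With 4 libraries a group, an estimate near 0 does not show that a gene did not change.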
